A study of Mus musculus with 24 samples.

Results

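The 9 genes described here encode chemokine receptors that macrophages or type 2 helper T (Th2) cells can use: Ccr1, Ccr2, Ccr4, Ccr7, Ccr8, Ccrl2, Cx3cr1, Cxcr4 and Cxcr6. They were taken by symbol from the 23420 genes counted in each of 24 RNA-seq libraries, and all 9 symbols were found. Th2 cells were polarized from naive CD4+ T cells of spleen and lymph nodes, and bone marrow-derived macrophages (BMDMs) were grown with M-CSF and L929-conditioned medium. All mice were adult, of C57BL/6 background. Mutant mice carried a Cre recombinase that tamoxifen activates, and a Rosa26 fluorescent reporter of Cre activity. In TDG iKO mice the floxed gene was Tdg (fl/fl), and in TET iTKO mice Tet1, Tet2 and Tet3 were each fl/fl. Tamoxifen was given to controls as well as to mice with Cre, and the labels give the controls only as wild type (WT). Th2 libraries came from TDG iKO and WT cells, 4 of each. BMDM libraries came from 2 cohorts, named TDG and TET after the mutant that each held next to its own WT, and were unstimulated (0 h) or treated for 6 h with Kdo2-lipid A (KLA), a lipopolysaccharide part that activates Toll-like receptor 4, with 2 libraries in each of the 8 groups. Comparisons of genotype and of KLA within a cohort use the same WT libraries. The labels do not say that replicates came from separate animals, so p-values measure only the spread between these libraries.

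Chemokine receptors are G protein-coupled receptors that steer leukocytes along gradients of small secreted chemokines. CCR2 (for CCL2 and CCL7) and CX3CR1 (for CX3CL1) mark monocytes and the macrophages derived from them, CCR1 (for CCL3 and CCL5) is common to myeloid cells, and CXCR4 (for CXCL12) holds cells in the bone marrow. CCR4 (for CCL17 and CCL22) and CCR8 (for CCL1) are typical of Th2 and regulatory T cells, CXCR6 (for CXCL16) of effector T cells, and CCR7 (for CCL19 and CCL21) directs naive T cells and mature dendritic cells to lymph nodes. CCRL2 is an atypical receptor that binds chemerin without signaling. TET enzymes oxidize 5-methylcytosine, mostly at CG dinucleotides, and TDG is the glycosylase that excises the further oxidized forms.

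In the mouse genome (mm9), 7 of the 9 genes lie on chromosome 9. Ccr1 (chr9:123876959-123883525), Ccr2 (chr9:124016689-124028296) and Cxcr6 (chr9:123715595-123720872) are close neighbors. Cx3cr1 (chr9:119957811-119977400) lies beside Ccr8 (chr9:120001251-120004024). Ccr4 (chr9:114399434-114405662) and Ccrl2 (chr9:110957339-110959774) lie apart from these, at lower positions on the same chromosome. Cxcr4 is at chr1:130484776-130488870 and Ccr7 at chr11:99005510-99016391. Cxcr6 lies within Fyco1, which is on the opposite strand, and the strand setting of the counting is not given in the sources used here. Of the 50-base windows in the Ccr2 exons, 1.75% also occur in exons of other genes, so reads from those stretches cannot be assigned with certainty. The share was 0.356% for Ccr4.

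RefSeq promoter windows (GRCm38.p6, 250 bases before to 50 after the start) matched 8 of the 9 genes, with no entry used for Ccr7. Windows for 4 genes are printed, 1 for each pattern in the counts: Ccr4 (high in Th2 cells), Ccrl2 (higher with KLA), Cx3cr1 (higher in TET iTKO) and Cxcr4 (lower with KLA).
Ccr4, chr9:114496495-114496794, minus strand, with an AP-1 match (TGANTCA) in capitals: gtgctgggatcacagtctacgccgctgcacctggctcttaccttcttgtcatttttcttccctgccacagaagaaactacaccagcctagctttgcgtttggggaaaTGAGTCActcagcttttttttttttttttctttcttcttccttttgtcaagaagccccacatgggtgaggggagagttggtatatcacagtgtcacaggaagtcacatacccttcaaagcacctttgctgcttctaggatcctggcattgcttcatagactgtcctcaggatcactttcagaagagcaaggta
Ccrl2, chr9:111057469-111057768, minus strand, the first of 3 listed starts, with an NF-kB consensus match in capitals: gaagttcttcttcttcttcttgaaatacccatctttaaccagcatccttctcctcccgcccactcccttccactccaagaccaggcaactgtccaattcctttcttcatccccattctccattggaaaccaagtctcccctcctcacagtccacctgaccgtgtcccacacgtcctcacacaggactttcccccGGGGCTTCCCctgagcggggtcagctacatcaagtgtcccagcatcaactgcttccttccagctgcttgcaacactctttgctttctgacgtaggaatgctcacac
Cx3cr1, chr9:120068247-120068546, minus strand, with CG dinucleotides in capitals: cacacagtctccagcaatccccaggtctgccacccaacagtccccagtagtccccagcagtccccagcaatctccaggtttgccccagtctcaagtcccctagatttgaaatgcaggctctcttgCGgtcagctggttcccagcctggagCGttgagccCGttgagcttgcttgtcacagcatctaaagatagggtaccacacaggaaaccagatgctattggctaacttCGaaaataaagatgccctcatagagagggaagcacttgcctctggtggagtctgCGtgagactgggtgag
Cxcr4, chr1:128592250-128592549, minus strand, with CG dinucleotides in capitals: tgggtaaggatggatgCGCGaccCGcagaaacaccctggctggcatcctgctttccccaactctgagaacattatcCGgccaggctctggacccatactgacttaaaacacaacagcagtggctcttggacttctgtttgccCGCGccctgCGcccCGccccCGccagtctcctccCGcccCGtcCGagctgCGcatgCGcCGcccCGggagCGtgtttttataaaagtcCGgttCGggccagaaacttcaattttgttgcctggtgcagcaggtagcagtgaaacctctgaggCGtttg
Both strands were searched, and all 32851 mouse windows of 300 bases served for comparison. The AP-1 letters occurred in 7.81% of all windows and in the Ccr4 window alone among these genes, where they overlapped no other motif searched. The NF-kB consensus occurred in 8.46% of all windows, once in the Ccrl2 window shown and once in that of Ccr1, a gene lower with KLA. The other Ccrl2 windows held no such match. The Cxcr4 window held 20 CG dinucleotides, the upper quartile of all windows, and the Cx3cr1 window held 5, against a median of 7. The windows of Ccr1 and Ccr2 held 1 each, those of Ccr8, Ccr4 and Cxcr6 held 2, 3 and 3, and the Ccrl2 window shown held 6. GAGGAA, letters found in sites of the myeloid factor PU.1, occurred in 28.3% of all windows and here only upstream of Ccr1. AGATAA, letters found in GATA factor sites, occurred in 11.2% of all windows and here in those of Ccr2 and Ccr8 and in the other Ccrl2 windows. A match describes the letters and is not a bound site.

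Libraries held 4982950 to 26657729 counts assigned to genes. In the Th2 cells, replicates 3 and 4 of each genotype were alike to within about sampling noise (mean chi-square per gene 1.34 and 1.51, against 6.81 to 113 for the other Th2 pairs). They were therefore summed and counted as 1 sample, leaving n = 3 a genotype. All 7 macrophage markers were detected in every BMDM library and all 7 T cell and 4 Th2 markers in every Th2 library. Counts of the targeted genes could not check the genotypes. Tdg had at most 9.22 normalised counts in any library, and the Tet2 and Tet3 ranges in TET iTKO (702 to 1611 and 1239 to 1533) were no lower than in WT of the TET cohort (506 to 1409.8 and 1102 to 1381). The counts do not separate deleted from remaining exons. Levels below are counts divided by library size factors (normalised counts, median-of-ratios over all 24 libraries). Fold changes and p-values are from DESeq2's Wald test with Benjamini-Hochberg adjustment over all genes tested, called at an adjusted p under 0.05. Values after ± are SE for log2 fold changes. In bulk RNA, fewer cells of a type and less RNA per cell cannot be told apart.

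The first comparison asked which receptors each cell type carried. WT Th2 cells had more Ccr4, Ccr8, Ccr7 and Cxcr6, and WT BMDMs at 0 h had more Cx3cr1, Ccrl2, Ccr1 and Cxcr4. Th2 cells carried Cxcr4 too, with a mean of 1205 normalised counts in WT. That was above every BMDM group at 6 h. In WT Th2 libraries Ccr4 had 2339.9, 2553, 1854 and 1856 normalised counts and Ccr8 had 1464, 1588, 929.7 and 924. Across the 16 BMDM libraries of all genotypes, Ccr4 was at 0 in 14 and had 2 counts in total, and Ccr8 was at 0 in 15 and had 1. With 1 count in total over the 4 WT BMDM libraries at 0 h for either gene, the pooled ratio of Th2 over BMDM was 7531 for Ccr4 (exact 95% interval 1351 to 297477) and 4048 for Ccr8 (726 to 159916). These intervals cover counting error only. Cxcr6 had 304, 260.0, 652 and 628 normalised counts in WT Th2 cells and between 0 and 3.9 in the 4 WT BMDM libraries at 0 h, a pooled ratio of 344 (158 to 938).

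Ccr7 had 1871, 2034, 1247 and 1271 normalised counts in WT Th2 cells. WT BMDMs at 0 h had 159 and 177 (TDG cohort) or 2.69 and 3.25 (TET cohort), all below the Th2 range. Cx3cr1 ran the other way, with 2.37 to 10.5 normalised counts in WT Th2 cells against 46.8 to 729 in these BMDMs. DESeq2 called 8 of the 9 receptors between WT Th2 cells and WT BMDMs at 0 h, a contrast in which 54.8% of 13913 genes tested were called. Ccr4, Ccr8, Cxcr6 and Ccr7 were higher in Th2 cells (Ccr7 log2 fold change 4.34 ± 1.41, adjusted p = 0.00485), and Cx3cr1 was lower (-6.02 ± 0.95, adjusted p = 1.55e-09). Ccrl2 (-1.42 ± 0.34, adjusted p = 0.000107), Ccr1 (-1.24 ± 0.39, adjusted p = 0.00337) and Cxcr4 (-1.12 ± 0.29, adjusted p = 0.00025) were lower by smaller amounts. The normalised counts of these 8 genes did not overlap between the 2 cell types, narrowly so for Ccr1 (149.8 in the highest Th2 library, 151.8 in the lowest BMDM library). The share of all genes without overlap was not counted. Cell type and culture cannot be told apart in this contrast. Against BMDMs of the TDG or the TET cohort alone, the log2 fold change was 3.33 or 9.10 for Ccr7 and -7.11 or -3.25 for Cx3cr1, all still called. Against the TET cohort alone the Ccr1 call was lost (-0.78, adjusted p = 0.0525).

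**Figure D1:**
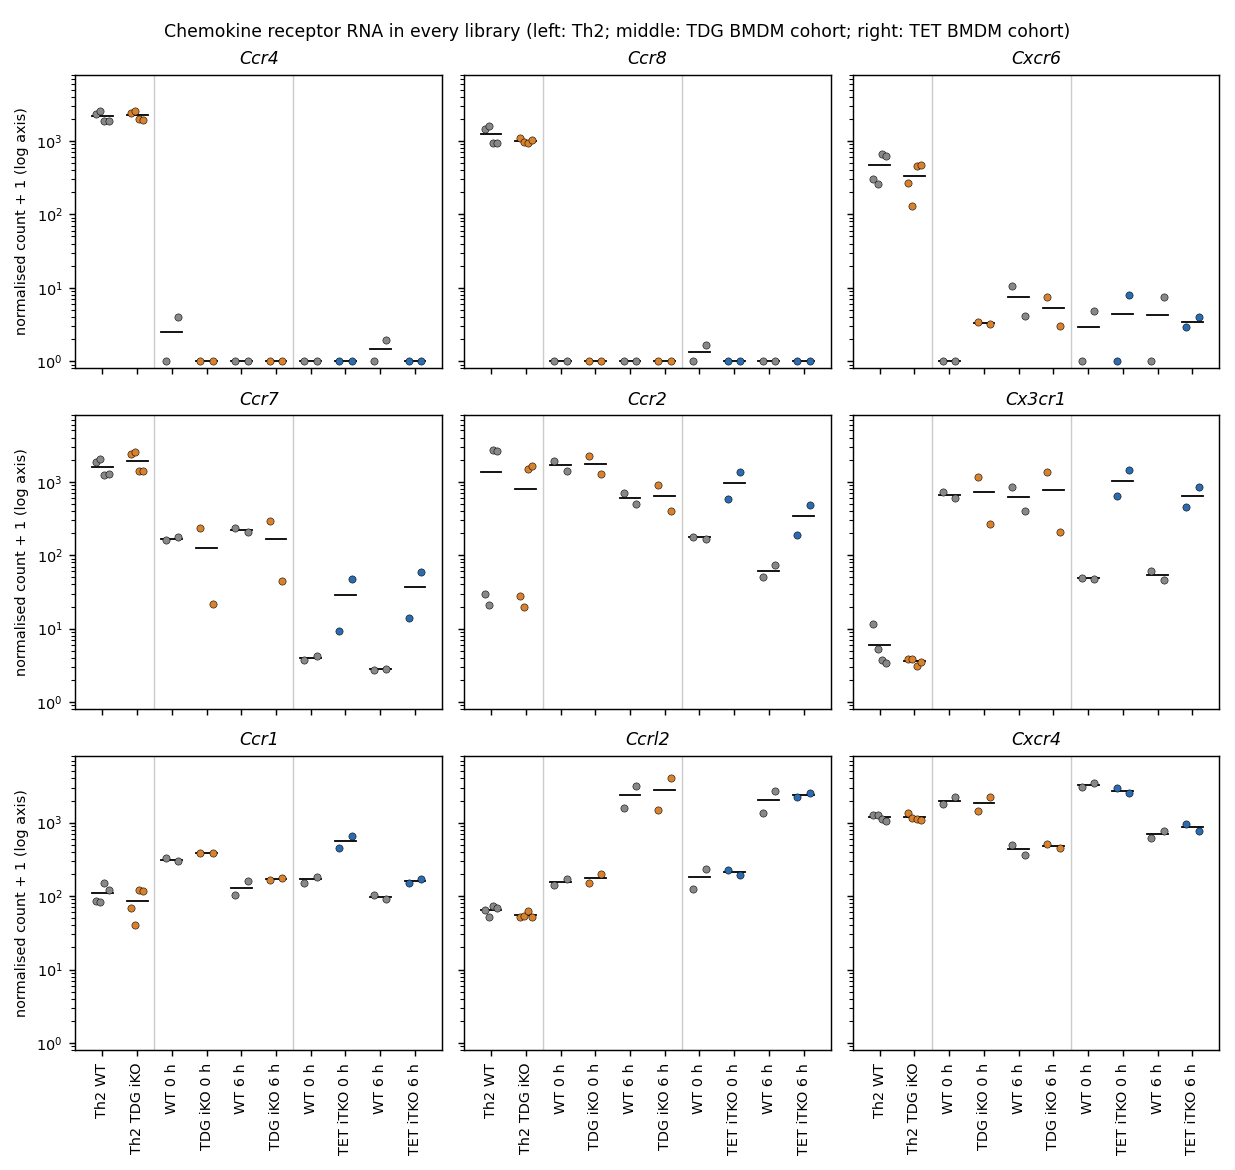
Normalised count + 1 of each receptor on a log axis, with 1 point per library and a line at the mean of the points, in the Th2 groups (left), the TDG BMDM cohort (middle) and the TET BMDM cohort (right). WT is grey, TDG iKO orange and TET iTKO blue. Ccr4 and Ccr8 sit at or near 0 in every BMDM library, Ccrl2 lies between 1342 and 4055 in the 6 h libraries, and Cx3cr1 is 45.6 to 59.4 in the 4 WT libraries of the TET cohort and at least 209 in the other BMDMs.

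The remaining receptor, Ccr2, had the widest spread among Th2 cells. Its normalised counts were 29, 19.7, 2688 and 2647 in WT replicates 1 to 4 and 26.4, 18.9, 1496 and 1637 in TDG iKO. Replicates 3 and 4 were thus 90.1 times as high on average as replicates 1 and 2. Among 9635 genes with a mean of at least 50 normalised counts in Th2 cells, 6 differed as much between these sets of libraries, Ccr2 included. Ccr2 passed that minimum only through replicates 3 and 4, where it was high, so its rank is a description. Cxcr6 was also higher in replicates 3 and 4 (458 to 652 against 131 to 304), and Ccr7 was lower (1247 to 1413 against 1871 to 2539). The summed level of 7 macrophage markers was 55.3 to 60.5 CPM (counts scaled to library total) in replicates 3 and 4 and 10.8 to 19.3 in replicates 1 and 2. Most of it was Emr1 (49.4 to 55.8 CPM in replicates 3 and 4), and 3 markers at most exceeded 3 counts in any Th2 library. Csf1r and Mertk were at 0 and Lyz2 at 3 counts or fewer, and the 2 CD8 genes summed to 18.4 to 21.7 CPM in replicates 3 and 4 and 15.3 to 23.3 in replicates 1 and 2. The macrophage list in BMDMs summed to 21468 to 28920 CPM. The part of such RNA in the Ccr2 levels was not tested. For WT Th2 cells against WT BMDMs, the log2 fold change of Ccr2 was -0.02 ± 1.69 (adjusted p = 0.992), and it was -5.23 (adjusted p = 7.96e-08) without the summed replicates 3 and 4.

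Loss of TDG was next compared with WT in Th2 cells. No receptor was called. DESeq2 called 0 of 15826 genes tested (0% called, 77 at an unadjusted p under 0.05), and edgeR called 0 (55 unadjusted). Of the 9 receptors, 8 had a p-value, since the spread of Ccr2 set it aside as an outlier. Ccr4 was 2371, 2556, 2002 and 1949 in TDG iKO, alongside the WT values above, a log2 fold change of 0.03 with a 95% interval of -0.38 to 0.44. The interval for Cxcr4 was -0.34 to 0.34. Ccr8 was 1109, 950.5, 944 and 1011 in TDG iKO, inside the WT range of 924 to 1588 (log2 fold change -0.39 ± 0.26, interval -0.91 to 0.12). Ccr7 was 2397, 2539, 1413 and 1395 (0.29 ± 0.32), and Cxcr6 was 269, 131, 458 and 475 (-0.47 ± 0.53).

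Same-numbered Th2 libraries deviated together from their group means (correlations across genes of 0.482, 0.664 and 0.901), so the fit was repeated with the replicate number as a block. It called 15 genes and 0 receptors, with 541 of 15898 genes at an unadjusted p under 0.05. Among these were 4 receptors, none past adjustment: Ccr7 at 0.27 ± 0.11 (adjusted p = 0.689), Ccr2 at -0.55 ± 0.22 (0.694), Ccr8 at -0.35 ± 0.15 (0.815) and Cxcr6 at -0.52 ± 0.18 (0.532). In each of the 4 same-numbered pairs Ccr7 and Ccr4 were higher and Cxcr6, Ccr2 and Ccr1 were lower in TDG iKO. Pairs 3 and 4 are near-identical libraries, counted as 1 sample in the main fit. The share of all genes with such agreement was not counted. With replicates 3 and 4 also kept apart, the block fit called 87 genes, among them Ccr2 (-0.64, adjusted p = 0.0157) and Cxcr6 (-0.49, adjusted p = 0.04996), both lower in TDG iKO. That fit counts near-identical libraries as separate samples.

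**Figure D2:**
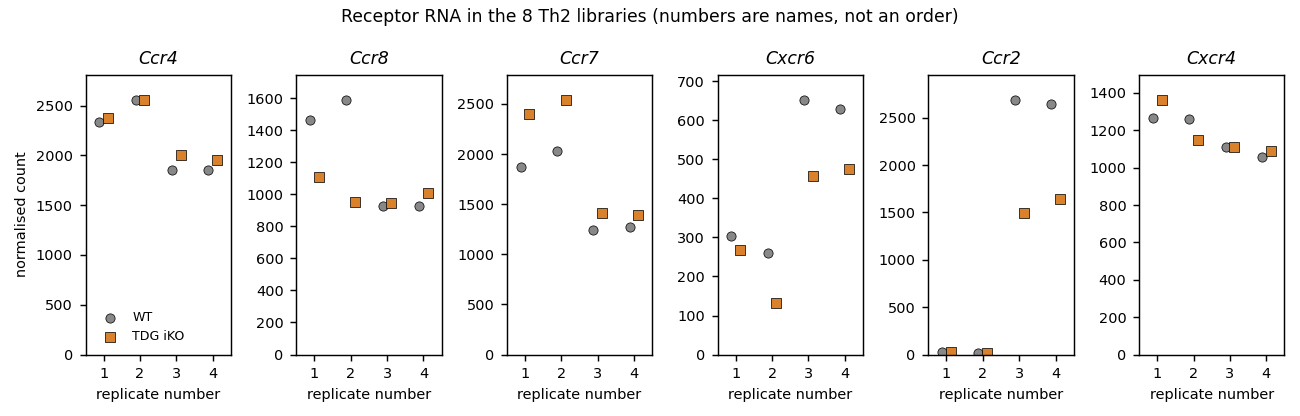
Normalised counts of 6 receptors in the 8 Th2 libraries by replicate number, WT as grey circles and TDG iKO as orange squares, on axes that start at 0. Ccr2 lies between 18.9 and 29 in replicates 1 and 2 and between 1496 and 2688 in replicates 3 and 4 in both genotypes, and Ccr4 and Cxcr4 differ little between genotypes.

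In BMDMs, loss of TDG likewise gave no call. Of the 9 receptors Ccr8 had 0 counts in the whole TDG cohort. At 0 h DESeq2 called 0% of 15026 genes tested, of which 265 had an unadjusted p under 0.05 (edgeR 0 and 125). At 6 h it also called 0%, with 34 unadjusted (edgeR 0 and 27). Cx3cr1 at 0 h was 1166 and 267 in TDG iKO and 729 and 597 in WT, so that the WT libraries lay between the mutant ones (0.10 ± 0.78, 95% interval -1.42 to 1.63). Ccr7 was 230.5 and 21 in TDG iKO and 159 and 177 in WT, again with the WT inside (-0.43 ± 0.92). Ccr1 levels did not overlap between genotypes at either time. They were 383 and 379 against 328 and 295 at 0 h (0.28 ± 0.35, interval -0.41 to 0.97). At 6 h they were 163 and 174 against 101 and 157 (0.37 ± 0.36, interval -0.34 to 1.09). The intervals for Ccr2 were -0.83 to 0.98 at 0 h and -0.80 to 1.01 at 6 h, and those for Cxcr4 were -0.80 to 0.53 and -0.52 to 0.83. The library of TDG iKO with more Cx3cr1 and Ccr7 also had more RNA of other cells. Replicate 1 at 0 h had 27.4 CPM of Cd34 and Kit, which mark progenitors, and 283 CPM of 5 neutrophil lineage genes (Camp, Ngp, Mpo, Elane and Prtn3), against 5.73 and 21.7 in replicate 2. The WT libraries also differed in these markers at 0 h (12 and 3.03 CPM, and 84.4 and 10.7 CPM), with the Cx3cr1 and Ccr7 levels given above. At 6 h the markers were at 10.3 and 2.9 CPM, and 92.1 and 7.5 CPM, in WT replicates 1 and 2. In the same order Cx3cr1 had 849.7 and 396 normalised counts and Ccr7 had 236 and 206. The part of these cells in the receptor levels was not tested.

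Between TET iTKO and WT BMDMs 4 receptors were called at 0 h or 6 h, all of them higher in TET iTKO. At 0 h DESeq2 called 4 of the 7 receptors that passed its filter on low counts (7.5% of 12200 genes tested were called). At 6 h it called 3 of 6 (6.58% of 11634). Ccr4 and Ccr8 had at most 1 count a library and did not pass.

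Cx3cr1, the receptor for fractalkine, had the largest fold change of the receptors at 0 h. There it had 641 and 1423 normalised counts in TET iTKO and 47.6 and 46.8 in WT. The log2 fold change was 4.45 ± 0.54 (adjusted p = 5.11e-14). At 6 h it had 446 and 837 against 59.4 and 45.6 (3.60 ± 0.54, adjusted p = 5.49e-09). The groups were far apart at both times, and the call held under all 8 alternatives at 0 h, with log2 fold changes of 3.77 to 4.91.

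Ccr2, which draws monocytes out of the marrow, had 587 and 1337 normalised counts in TET iTKO and 179 and 168 in WT at 0 h (2.47 ± 0.63, adjusted p = 0.00279). At 6 h it had 189 and 484 against 48.9 and 71.7 (2.47 ± 0.64, adjusted p = 0.00379). Replicate 2 was the higher TET iTKO library at both times. Without it the log2 fold changes were 1.77 (adjusted p = 0.239) and 1.65 (adjusted p = 0.209). The 0 h call was also lost without WT replicate 1 (2.52, adjusted p = 0.0814) or WT replicate 2 (2.42, adjusted p = 0.0958), and the 6 h call without WT replicate 1 (2.22, adjusted p = 0.135).

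Ccr7 was scarce in this cohort. Raw counts at 0 h were 8 and 61 in TET iTKO and 3 and 5 in WT, a pooled ratio of 10.0 (exact 95% interval 4.82 to 24.2). At 6 h they were 14 and 79 against 2 and 2, a pooled ratio of 21.4 (8.09 to 80.2). These intervals cover counting error only, not the spread between the TET iTKO libraries. The groups did not overlap, and DESeq2 called both (3.21 ± 0.99, adjusted p = 0.0213, and 4.31 ± 1.11, adjusted p = 0.00316). edgeR called neither (adjusted p = 0.0934 and 0.0567). Without TET iTKO replicate 2 the log2 fold change fell to 1.46 at 0 h (adjusted p = 0.948) and 2.87 at 6 h, where the gene no longer passed the filter. Both calls were also lost without WT replicate 1 (adjusted p = 0.21 and 0.0818) or WT replicate 2 (adjusted p = 0.193 and 0.056).

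Ccr1 had 449 and 657 normalised counts in TET iTKO and 152 and 183 in WT at 0 h, with no overlap (1.72 ± 0.23, adjusted p = 1.76e-11). The call held under all 8 alternatives, with log2 fold changes of 1.43 to 1.96. At 6 h the values were 149.6 and 172 against 103 and 91.2 (0.72 ± 0.25, adjusted p = 0.0521). The adjusted p was 0.0437 among genes that reached 10 counts in 2 or more libraries. Ccrl2 and Cxcr4 were not called. Ccrl2 had 227 and 194 in TET iTKO and 126 and 236 in WT at 0 h (0.22 ± 0.48, 95% interval -0.72 to 1.15). Cxcr4 had 2934 and 2526 against 3082 and 3447 (-0.26 ± 0.15, interval -0.55 to 0.03). At 6 h the interval for Cxcr4 was -0.02 to 0.58.

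**Figure D3:**
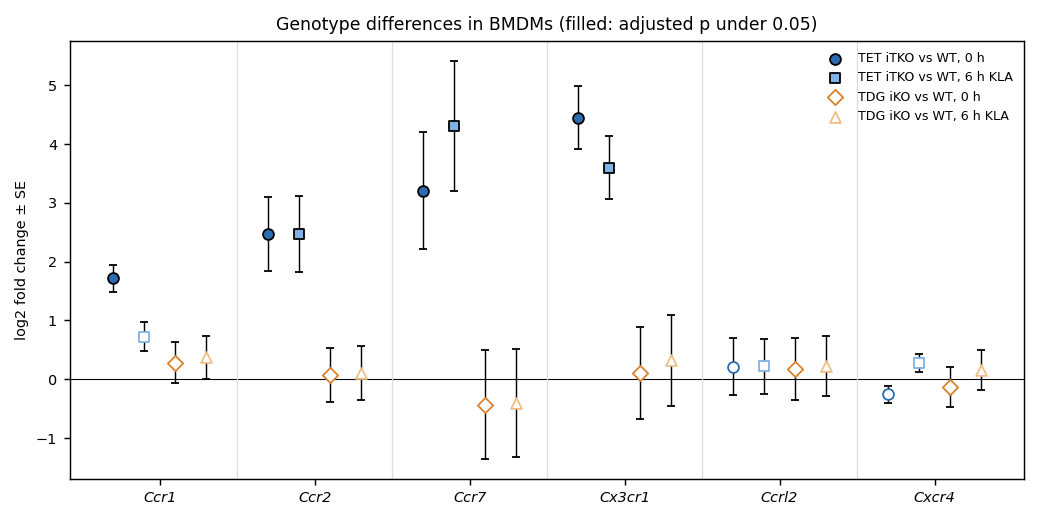
Log2 fold change with its SE (bars) for TET iTKO against WT (blue) and TDG iKO against WT (orange) at 0 h and after 6 h of KLA, for the 6 receptors detected in all BMDM libraries. Filled symbols have an adjusted p under 0.05. The 7 filled points are all TET iTKO comparisons, from 1.72 for Ccr1 to 4.45 for Cx3cr1.

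The receptors called in TET iTKO also differed between the WT libraries of the 2 cohorts. At 0 h the mean WT level of Cx3cr1 was 663 normalised counts (TDG cohort) against 47.2 (TET cohort), a ratio of 14.0. In the same order Ccr2 averaged 1666 and 173 (ratio 9.62), Ccr7 averaged 168 and 2.97 (ratio 56.4), and Ccr1 averaged 312 and 168 (ratio 1.86). The WT ranges of these 4 genes did not overlap between cohorts, and the share of all genes without overlap was not counted. Genes with a mean of at least 50 normalised counts in these libraries numbered 9517. Of these, 3 were as far apart as Ccr7, 8 as Cx3cr1 and 15 as Ccr2, each count including the gene itself. Ccr7 and Cx3cr1 passed that minimum only through the TDG cohort, where they were high, so their ranks are descriptions. Ccrl2 (153 and 181) overlapped, and 63.0% of genes were at least as far apart. Cxcr4, not called in TET iTKO, had separate WT ranges too (1998 and 3264, ratio 0.612). Of the same genes, 17.1% were at least as far apart as Cxcr4 and 9.65% as Ccr1. At 6 h Ccr1 overlapped between the cohorts' WT libraries. The mean of TET iTKO at 0 h was 1032 for Cx3cr1 and 553 for Ccr1, above the other cohort's WT, and 962 for Ccr2 and 27.5 for Ccr7, below it. Cohort, mouse line and preparation cannot be told apart, and no test was made between the cohorts' WT libraries.

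Markers of other cells also moved with the TET genotype. Cd34 and Kit summed to 5.74 and 22.1 CPM in TET iTKO and 2.61 and 2.7 in WT at 0 h, and to 3.58 and 12.7 against 1.01 and 1.21 at 6 h. Replicate 2, the library with more Ccr2, Ccr7 and Cx3cr1, had the larger sum at both times. The 5 neutrophil lineage genes summed to 18 and 64.9 against 11.1 and 28.4 at 0 h, which overlapped, and to 21.2 and 51.8 against 10.4 and 15.0 at 6 h, which did not. Of the 4 dendritic cell markers, Cd209a was at 0 in all 8 libraries of the cohort. Their sum was 1.15 and 1.15 CPM in TET iTKO against 0.196 and 0.187 in WT at 0 h, and 0.73 and 0.463 against 0.239 and 0.304 at 6 h, without overlap at either time. The 7 macrophage markers summed to 23159 and 23203 CPM in TET iTKO, below the 26259 to 27424 of WT. The part of other cells in the receptor levels was not tested.

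Differences between the 2 mutants were then tested directly, as the TET effect minus the TDG effect. At 0 h DESeq2 called 1 receptor, Ccr1 (1.45 ± 0.37, adjusted p = 0.0313), where 0.355% of 10992 genes tested were called. The differences for Cx3cr1 (4.35 ± 1.25, adjusted p = 0.102), Ccr2 (2.40 ± 0.71, adjusted p = 0.128) and Ccr7 (3.64 ± 1.51, adjusted p = 0.64) were larger but did not pass. At 6 h none passed (0.0765% of 13075 genes called, 10 in all), and edgeR called 0 receptors at either time. The Ccr1 call was lost with edgeR (adjusted p = 0.458), with TMM factors (adjusted p = 0.0507) and without any 1 of 6 of the 8 libraries (adjusted p = 0.0909 to 0.869, the exceptions being TDG cohort WT replicate 1 and TET iTKO replicate 1). Without TDG cohort WT replicate 1, 2403 genes and 3 receptors were called.

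KLA raised Ccrl2 and lowered Cxcr4 and Ccr1 in all 4 BMDM backgrounds, and Ccr2 was lower by like amounts in all 4, called without pairing in the TDG cohort and with pairing of 0 h and 6 h libraries in the TET cohort. DESeq2 called 4 of 6 receptors tested in WT of the TDG cohort (8.6% of 11633 genes called) and 4 of 6 in TDG iKO (7.08% of 11633). It called 3 of 6 in WT of the TET cohort (24.1% of 11917) and 3 of 6 in TET iTKO (24.4% of 11352).

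Ccrl2 was 138 and 168 normalised counts at 0 h and 1578 and 3163 at 6 h in WT of the TDG cohort, and 148 and 199 against 1492 and 4055 in TDG iKO. In the TET cohort it was 126 and 236 against 1342 and 2714 in WT and 227 and 194 against 2203 and 2554 in TET iTKO. Every 6 h library was above every 0 h library. The log2 fold changes were 3.96 ± 0.52, 4.01 ± 0.51, 3.49 ± 0.47 and 3.50 ± 0.47, with adjusted p of 6.71e-12, 1.43e-12, 3.16e-12 and 2.99e-12 in that order of genotypes. Per kilobase of exon, Ccrl2 moved from 72.5 to 1123 normalised counts in WT of the TDG cohort and became the highest of the 9 receptors.

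Cxcr4, the highest of the 9 per kilobase in all 4 unstimulated BMDM groups, fell. It was 1770.0 and 2226 at 0 h and 494 and 367 at 6 h in WT of the TDG cohort, and 3082 and 3447 against 626 and 779.8 in WT of the TET cohort. The log2 fold changes were -2.22 ± 0.34, -1.93 ± 0.34, -2.21 ± 0.15 and -1.67 ± 0.15 in WT of the TDG cohort, TDG iKO, WT of the TET cohort and TET iTKO, all called (adjusted p at most 1.24e-06). Calls of Ccrl2 and Cxcr4 held under all 8 alternatives in each of the 4 backgrounds.

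Ccr1 was lower at 6 h by log2 fold changes of -1.26 ± 0.36, -1.17 ± 0.35, -0.78 ± 0.25 and -1.78 ± 0.23 in the same order (adjusted p = 0.00918, 0.0173, 0.00847 and 3.27e-13). In TET iTKO it went from 449 and 657 to 149.6 and 172. The 2 calls in the TDG cohort were lost with edgeR (adjusted p = 0.0626 and 0.0773). Without single libraries they were lost for WT without the 6 h replicate 1 (adjusted p = 0.233) and for TDG iKO without any 1 of its 4 libraries (adjusted p = 0.195 to 0.252). The WT call in the TET cohort was lost without the 0 h or the 6 h replicate 2 (adjusted p = 0.199 and 0.114).

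Ccr2 was 1912 and 1419 at 0 h and 709 and 493 at 6 h in WT of the TDG cohort, and 179 and 168 against 48.9 and 71.7 in WT of the TET cohort. Its log2 fold changes were -1.47 ± 0.46, -1.45 ± 0.46, -1.51 ± 0.65 and -1.51 ± 0.63. The adjusted p were 0.0209 and 0.028 in the TDG cohort, called, and 0.0728 and 0.0644 in the TET cohort, not called. The TDG cohort calls were lost with edgeR (adjusted p = 0.144 and 0.163), for WT without any 1 of its 4 libraries (0.0589 to 0.445), and for TDG iKO without the 0 h replicate 1 (0.633) or the 6 h replicate 2 (0.498). In the TET cohort the deposited names give the 0 h and 6 h libraries of each of the 4 pairs the same number, taken here as the animal. With that pairing as a replicate block, Ccr2 was called in WT (-1.52, adjusted p = 4.33e-10) and in TET iTKO (-1.54, adjusted p = 1.78e-14), and Cx3cr1 was called lower in TET iTKO (-0.65, adjusted p = 0.000892). In TET iTKO the Ccr2 call was also made by edgeR (adjusted p = 0.0198).

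In the main fit, Cx3cr1 and Ccr7 were not called with KLA in any background. Without single libraries the log2 fold change ranged from -1.20 to -0.01 for Cx3cr1 in TET iTKO. For Ccr7 in TDG iKO it ranged from -1.48 to 2.99. Cx3cr1 in TET iTKO, called with the block, went from 641 to 446 in replicate 1 and from 1423 to 837 in replicate 2 (-0.68 ± 0.52 without it, adjusted p = 0.401). It was 729 and 597 at 0 h and 849.7 and 396 at 6 h in WT of the TDG cohort (-0.10 ± 0.78). In the same libraries Ccr7 was 159 and 177 against 236 and 206, higher at 6 h without overlap (0.40 ± 0.92, 95% interval -1.41 to 2.21). In WT of the TET cohort it went the other way, 2.69 and 3.25 against 1.75 and 1.86, also without overlap. Those values rest on 5 raw counts or fewer a library. In both mutants Ccr7 overlapped between times. The share of all genes without overlap was not counted.

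**Figure D4:**
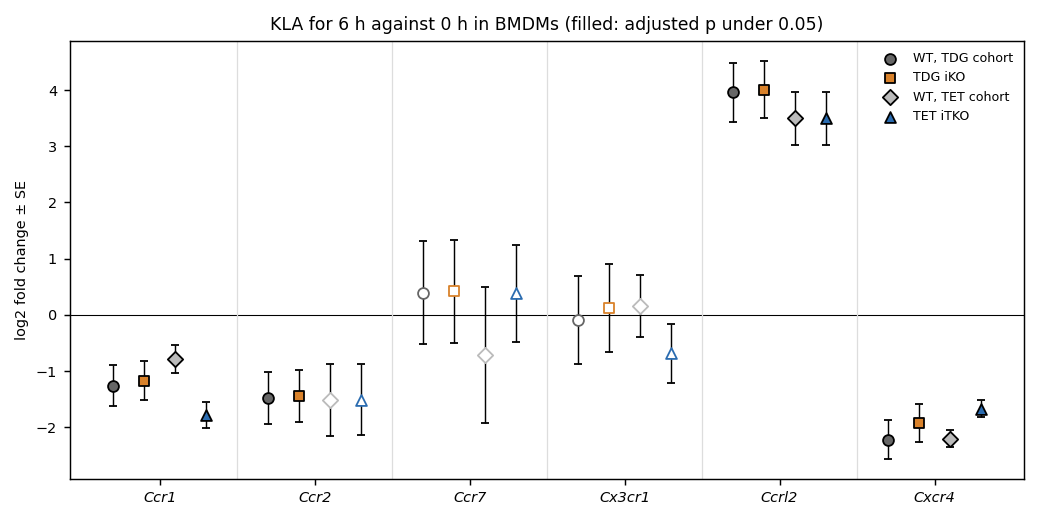
Log2 fold change of 6 h of KLA against 0 h with its SE (bars) in the 4 BMDM backgrounds, for the 6 receptors detected in all BMDM libraries. Filled symbols have an adjusted p under 0.05. Ccrl2 lies between 3.49 and 4.01 and Cxcr4 between -2.22 and -1.67 in all 4, while Ccr2 is at -1.51 in both backgrounds of the TET cohort, open here and called (-1.52 and -1.54) with pairing of the libraries.

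Whether the response to KLA differed by genotype was tested as an interaction. For TDG, 0% of 15026 genes were called (37 at an unadjusted p under 0.05, and 0 by edgeR with 24 unadjusted), and the difference was 0.05 ± 0.73 for Ccrl2 and 0.29 ± 0.48 for Cxcr4. For TET, 0.426% of 12200 genes were called and none of the receptors. The difference was -0.997 ± 0.338 for Ccr1 (adjusted p = 0.301) and 0.54 ± 0.21 for Cxcr4 (adjusted p = 0.644), neither past the threshold. With the pairing as a replicate block, Cxcr4 was called (0.54, adjusted p = 0.0161). For Ccrl2 the difference was 0.01 ± 0.67, with a 95% interval of -1.31 to 1.32.

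Over all 10 groups, the order of the mean levels differed from gene to gene. Ccr1 was highest in TET iTKO at 0 h (553 ± 147, SD, n = 2), then in TDG iKO and WT of the TDG cohort at 0 h (381 and 312), each without overlap with the next. From the fourth group down (168 to 74.4) neighbors overlapped. Ccr2 was highest in the 0 h groups of the TDG cohort (1763 and 1666, overlapping) and lowest in WT of the TET cohort, where 173 at 0 h and 60.3 at 6 h did not overlap each other or TET iTKO at 6 h. The Th2 groups spanned both, with replicates 1 and 2 below them. Cx3cr1 formed 3 tiers without overlap: 6 BMDM groups with means of 623 to 1032 each of which overlapped the next, the 2 WT groups of the TET cohort at 52.5 and 47.2, and the Th2 groups at 5.76 and 2.69. Ccr7 was highest in the Th2 groups (2113 and 1721, overlapping), was 126 to 221 in the TDG cohort, and reached its lowest in WT of the TET cohort (2.97 and 1.80). Cxcr4 was highest in WT of the TET cohort at 0 h (3264), ahead of TET iTKO at 0 h (2730), and lowest in the 6 h groups of the TDG cohort (478 and 430.3, overlapping). Its Th2 groups (1205 and 1204, overlapping) lay between the 0 h and the 6 h BMDM groups, without overlap with either. Ccrl2 was highest in the 4 groups at 6 h (2028 to 2774, each overlapping the next), followed by the 4 at 0 h (153 to 210.4) and Th2 cells (61.7 and 53.3). For Ccr4, Ccr8 and Cxcr6 the Th2 groups overlapped each other and lay above every BMDM group. In BMDMs Cxcr6 had at most 9 counts in any library and 48 in all 16.

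Across the 16 BMDM libraries, pairs of receptors fell into the same patterns. These correlations of log2 normalised counts are descriptions, since the libraries share cohorts, numbered pairs and treatments. Ccrl2 and Cxcr4 ran opposite (Pearson r = -0.893), and Cx3cr1, Ccr2 and Ccr7 ran together (r = 0.831 for Cx3cr1 and Ccr7, 0.822 for Cx3cr1 and Ccr2, 0.81 for Ccr2 and Ccr7). Among 9529 genes with a mean of at least 50 normalised counts, the most alike to Ccrl2 were Icam1 (r = 0.988), Cd40 (0.987) and Jak2 (0.987). For Cxcr4 they were Pdp1 (0.976), Arl4c (0.973) and Sgsh (0.972). For Cx3cr1 they were Cytip (0.959), Fcrl5 (0.944) and Cd34 (0.925), the progenitor marker above. For Ccr2 they were Serpinb6b (0.956) and Ripk3 (0.948), for Ccr7 Lsp1 (0.943), Uchl1 (0.926) and Apol7c (0.921), and for Ccr1 Sash3 (0.908), Whsc1 (0.905) and Il1r1 (0.901).

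**Figure D5:**
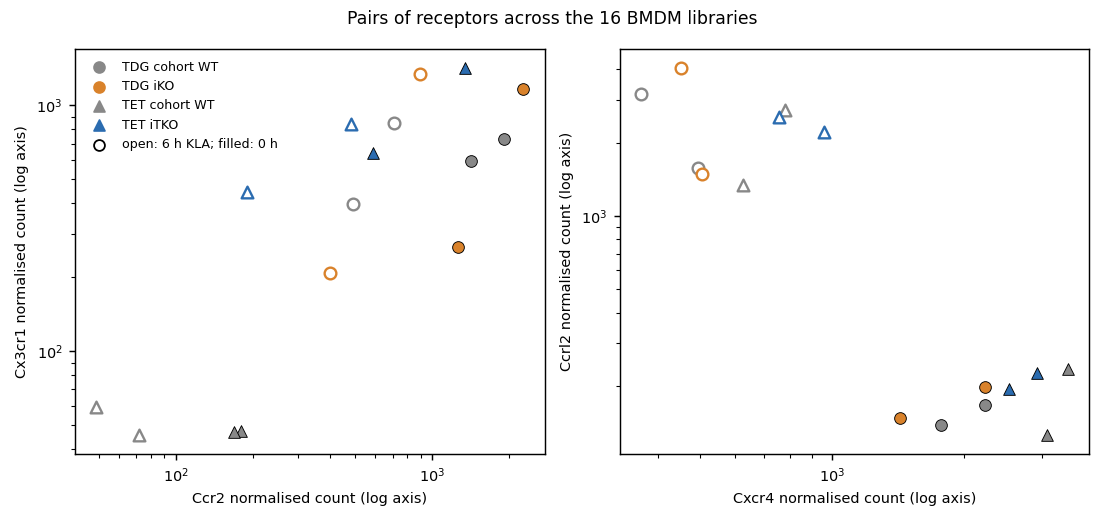
Normalised counts of Cx3cr1 against Ccr2 (left) and of Ccrl2 against Cxcr4 (right) in the 16 BMDM libraries, on log axes. Circles are the TDG cohort and triangles the TET cohort, WT is grey, TDG iKO orange and TET iTKO blue, and open symbols are 6 h of KLA. The 4 WT libraries of the TET cohort are lowest for Cx3cr1 (45.6 to 59.4), and in the right panel the 0 h and 6 h libraries lie in separate corners.

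The ligands and partners of these receptors were counted in the same fits, from lists of 18 ligands (chemokines and chemerin), 16 other chemokine receptors and 20 signaling genes. At 0 h in TET iTKO, 2 of 12 ligands tested rose (Ccl12, 0.50 ± 0.17, adjusted p = 0.0489, a CCR2 ligand, and Cxcl16, 0.32 ± 0.10, adjusted p = 0.0328, the CXCR6 ligand). Among other receptors Ccr3 rose (1.02 ± 0.27, adjusted p = 0.00352). The median log2 fold change was 0.23 for the ligands and 0.01 for all genes tested. At 6 h, 3 of 12 ligands fell: Ccl7 (-1.03 ± 0.12, adjusted p = 1.02e-15) and Ccl2 (-0.64 ± 0.15, adjusted p = 0.000843), both CCR2 ligands, and Ccl6 (-0.62 ± 0.16, adjusted p = 0.0031). Of the others 1 rose, Ccl22, the CCR4 ligand (2.55 ± 0.79, adjusted p = 0.0233). In the TET interaction with KLA, Ccl7 (-1.10 ± 0.16, adjusted p = 7.36e-08) and Ccl2 (-0.82 ± 0.21, adjusted p = 0.0316) were the 2 of 12 ligands called. Of 20 signaling genes, 1 rose and 1 fell at 0 h, where 7.5% of all genes tested were called, and 2 rose and 1 fell at 6 h (6.58%), among them Rgs1, which shortens G protein signaling (0.97 ± 0.16, adjusted p = 6.1e-07). For TDG iKO, none of the 3 lists had a member called in Th2 cells or in BMDMs.

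With KLA, several ligands rose in every background. In WT of the TET cohort 5 of 12 ligands rose and 2 fell (24.1% of all genes called), and in TET iTKO 5 of 11 rose and 4 fell (24.4%). Ccl3, which binds CCR1, rose by 3.06 ± 0.15 and 3.50 ± 0.15 on the log2 scale. In the TDG cohort 4 of 12 rose and 1 fell in WT (8.6% of all genes called), and 5 of 12 rose in TDG iKO (7.08%), with Ccl22 at 2.68 ± 0.60 and 2.70 ± 0.59. Rgs2, another brake on G protein signaling, fell in all 4 backgrounds (-2.59, -2.46, -2.94 and -2.60). Between cell types, 11 of 12 ligands were lower in WT Th2 cells than in WT BMDMs and 0 were higher, where 54.8% of all genes were called.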

How the data were processed

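Poly(A) RNA of Th2 cells and BMDMs was sequenced in paired ends. The authors aligned reads to mm9 with HISAT2 and deposited raw read counts per gene from HTSeq, 1 column for each of 24 libraries. Versions of both, the annotation and the strand setting are not given in the sources used here. The submitters' processing notes name DESeq2 1.30.0. The 5 tally rows of HTSeq and the ribosomal Rn45s (0.148 to 8.34% of counts) were left out.

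Fold changes were fitted with DESeq2 1.42.0 in R 4.3.3 (Wald test, Benjamini-Hochberg adjustment over all genes that passed its independent filter). Each BMDM cohort was fitted with all 4 of its groups, and both cohorts together for the difference between TET and TDG effects. Summed Th2 replicates 3 and 4 entered as 1 sample. Alternatives were edgeR 4.0.16 (quasi-likelihood), TMM factors, a minimum of 10 counts in 2 or more libraries, a replicate block and leaving out each library. The scripts were tested on simulated data. Exact 95% intervals (Clopper-Pearson) were given for ratios of pooled counts. Levels per kilobase used exon lengths of GENCODE M1. Pearson correlations used log2(normalised count + 1). Libraries held 4982950 to 26657729 counts.

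For pairing, same-numbered Th2 libraries deviated together (correlations above 0.1 in all 3 pairs), and deposited names gave 0 h and 6 h libraries of the TET cohort the same number, taken as the animal, in 4 of 4 pairs. Pairing needed 3 or more pairs or a shared animal. Other groups had 2 pairs that shared only a number, and were fitted without pairing. Correlations of TDG iKO with WT BMDMs were 0.344 at 0 h and 0.725 at 6 h. Those of TET iTKO with WT BMDMs were 0.046 and 0.022.

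All 9 receptors were named in every comparison. From the lists of other receptors, ligands and signaling genes, up to 6 called genes a list were eligible for naming, those with the largest change and a mean of at least 20 normalised counts. The 3 genes most alike to each receptor with a mean of at least 20 were named. Some of these items are not reported here. The receptors, the lists and the tests were chosen with earlier results of these data known.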

Additional observations from a re-analysis of the deposited data

Results flagged for a closer look

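Ccr1 was the only receptor called in the main fit at 0 h when the difference between the TET and TDG effects was tested. Cx3cr1 (4.35), Ccr2 (2.40) and Ccr7 (3.64) had larger differences that were not called. The Ccr1 call was lost with edgeR (adjusted p = 0.458) and with TMM factors in DESeq2 (adjusted p = 0.0507). At 6 h the Ccr1 difference was 0.37 ± 0.39 and was not called. At 0 h the log2 fold change in TET iTKO exceeded that in TDG iKO by 1.45 ± 0.37 (SE, DESeq2 adjusted p = 0.0313), with 449 and 657 normalised counts in TET iTKO against 152 and 183 in its WT, and 383 and 379 in TDG iKO against 328 and 295. The adjusted p over the alternatives ran from 0.00414 to 0.869.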

How the results depend on the processing

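Of 1069 log2 fold changes of single receptors under alternatives, 1000 kept their call or lack of one, 40 lost a call, 29 gained one and 0 reversed while called. A call could be lost only where the main fit made one. Values without an adjusted p, as for receptors near 0 counts, were taken as not called. Counts of receptors called moved as follows. In Th2 cells, TDG iKO against WT gave 2 with replicates 3 and 4 separate and a replicate block, in place of 0. With edgeR the KLA comparisons of the TDG cohort gave 2 in WT and 2 in TDG iKO, in place of 4 each, and the TET minus TDG difference at 0 h gave 0 in place of 1, as it did with TMM factors. A replicate block, a pairing that rests on shared numbers in the deposited names for KLA in the TET cohort, gave 5 in place of 3 for KLA in TET iTKO and 1 in place of 0 for the TET difference in KLA response. For the TET minus TDG difference the replicates share only a number, and the block gave 4 at 0 h and 3 at 6 h. In the TDG cohort, numbered pairs of 0 h and 6 h libraries also share only a number (correlations of deviations 0.317 in WT and 0.772 in TDG iKO, from 2 pairs each), and the block gave 4 receptors in each, as without it. The block changed no other count of receptors by more than 1.5 times. Leaving out single libraries gave 2 to 3 for KLA in WT of the TDG cohort, 2 to 3 in TDG iKO, 2 to 3 in WT of the TET cohort and 3 to 5 in TET iTKO. It gave 2 to 4 for TET iTKO at 0 h, 1 to 3 at 6 h, 0 to 3 for the TET minus TDG difference at 0 h and 0 to 3 at 6 h, and 7 to 9 of 9 between cell types.

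Counts over all genes moved more. The Th2 comparison gave 15 genes with the block, 2 with separate replicates, 87 with both and up to 7 without single libraries, in place of 0. TDG iKO at 0 h gave 4 genes with the block (shared numbers only) and 1177 without WT replicate 1, with 0 receptors in either. KLA in WT of the TDG cohort gave 413 with edgeR, 1822 with the block and 350 to 2218 without single libraries, in place of 1001, and TDG iKO gave 346, 1312 and 376 to 700, in place of 824. The TDG difference in KLA response gave 245 without WT 0 h replicate 1, in place of 0. TET iTKO gave 276 to 752 in place of 915 at 0 h and 264 to 703 in place of 765 at 6 h, and KLA in WT of the TET cohort gave 1878 to 2457 in place of 2874. The TET difference in KLA response gave 1 with edgeR, 225 with the block and 14 to 155, in place of 52. The TET minus TDG difference gave 0, 186 and 14 to 2403 in place of 39 at 0 h, and 1, 101 and 2 to 17 in place of 10 at 6 h. Apart from fewer samples or genes, the cause was not tested. Depth limits Ccr4, Ccr8 and Cxcr6 in BMDMs and Ccr7 in the TET cohort, which rest on few counts.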
